A study of Drosophila melanogaster with 12 samples.

Results

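Metallothioneins and other genes of metal handling were followed in Drosophila Kc167 cells given double-stranded RNA (dsRNA) against Polycomb group genes, against PTIP, or against both. The 9 genes were the metallothioneins MtnA, MtnB, MtnC and MtnD, the metal-responsive transcription factor MTF-1, the ferritin chains Fer1HCH and Fer2LCH, the metal transporter Mvl and the transferrin Tsf1. They were taken by gene symbol from the 11982 genes that the array measured under a single symbol, with the probe set of highest mean signal kept where a gene had several. Tsf1 had 3 probe sets and each of the other 8 genes had 1.

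Metallothioneins are small cysteine-rich proteins that bind copper, zinc and cadmium, and in flies their transcription is switched on by MTF-1, a zinc finger factor that recognises metal response elements in their promoters. Ferritin stores iron in a shell built of heavy chains, which oxidise the metal, and light chains, and in insects much of it lies in the secretory pathway. Mvl is a transporter of the NRAMP family that moves manganese and iron across membranes, and Tsf1 is a secreted iron carrier of the hemolymph.

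Total RNA was hybridised to 12 arrays, 3 for each of 4 groups. Kc167 is an embryo-derived line with features of plasmatocytes, the phagocytic blood cells of the fly. The control was Kc167 cells alone, for which the labels name no dsRNA. The PTIP group received dsRNA against PTIP, a component of histone H3 lysine 4 methyltransferase complexes. The Pc/ph group received dsRNA against Pc and ph, which encode subunits of Polycomb repressive complex 1, and the Pc/ph+PTIP group received dsRNA against all of these. Per the labels, dsRNA was used at 15 µg per well on 1000000 plated cells, serum was brought to 5% after 1 hour, and culture lasted 6 days. The sources used here do not give how the 15 µg were shared in the mixtures, or whether the control cells were mock treated. Nothing in the labels says that the replicates were separate cultures, so p-values speak only of the spread among these 12 arrays, which may be technical. In bulk RNA of this kind, fewer cells of a type and less RNA per cell cannot be told apart.

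The probe set for Pc fell to 19.9% of the control in the Pc/ph group (limma with the replicate number as a block, adjusted p = 2.51e-04). In the Pc/ph+PTIP group it stood at 59.7% of the control and was not called (adjusted p = 0.0601). It was there higher than in the Pc/ph group by 1.59 on the log2 scale (adjusted p = 0.00208). The Pc/ph+PTIP and Pc/ph groups thus differ in Pc signal as well as in PTIP dsRNA, and the part of each was not tested. The probe set for Ptip stood at 73.2% of the control in the PTIP group and 73.7% in the Pc/ph+PTIP group, neither of them called (adjusted p = 0.296 and 0.339).

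The 4 replicate 1 arrays stood apart from the other 8. The first principal component parted them and held 68.1% of the variance, and their upper quartiles lay at 8.65 to 8.95 log2 units against 9.62 to 9.74. The replicate number entered the fit as a block, which came with the choice of genes. Because of the replicate 1 arrays, values from replicates 2 and 3 alone are given beside the called differences of the metal handling genes. Of 13 hemocyte markers 12 (all but Sr-CI) lay more than 1 log2 unit above the highest Y-linked probe set, which serves as a background level because Kc167 is a female line. So did the neuronal genes elav and brp, the germline genes bam and aub and the crystal cell gene PPO2, and 0 of the muscle, fat body and lamellocyte markers. Some hemocyte markers were called in the fit with the block: 6 of 13 were lower and 0 higher in the PTIP group than in the control, 3 lower and 1 higher in the Pc/ph group, and 4 lower and 0 higher in the Pc/ph+PTIP group. Over all probe sets 6.52%, 1.53% and 5.57% were called in these comparisons, and without the block 0 of the 13 markers were called in any of them. In that fit 773, 429 and 730 of the 18769 probe sets had an unadjusted p under 0.05, and so did 4, 2 and 4 of the markers. Their summed signal ranged over 15.50 to 16.38 log2 units in the control, 15.10 to 16.06 in the PTIP group, 15.60 to 16.37 in the Pc/ph group and 15.01 to 16.10 in the Pc/ph+PTIP group. Their part in the results below was not tested.

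Kc167 cells gave clear signal for 4 of the 9 genes. MtnA, MTF-1, Fer1HCH and Fer2LCH lay more than 1 log2 unit above the highest Y-linked probe set on 12 of 12 arrays. MtnB, which ranged from 4.65 to 5.41, and MtnC, from 4.56 to 5.16, lay above it on 0 of 12 arrays. MtnD (5.02 to 5.69) was above it on 3 arrays, Tsf1 (5.17 to 5.96) on 5 and Mvl (4.75 to 5.74) on 7, and none of the 3 by as much as 1 log2 unit on any array. For these 5 genes the arrays therefore show no signal clearly above background in any group.

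**Figure D1:**
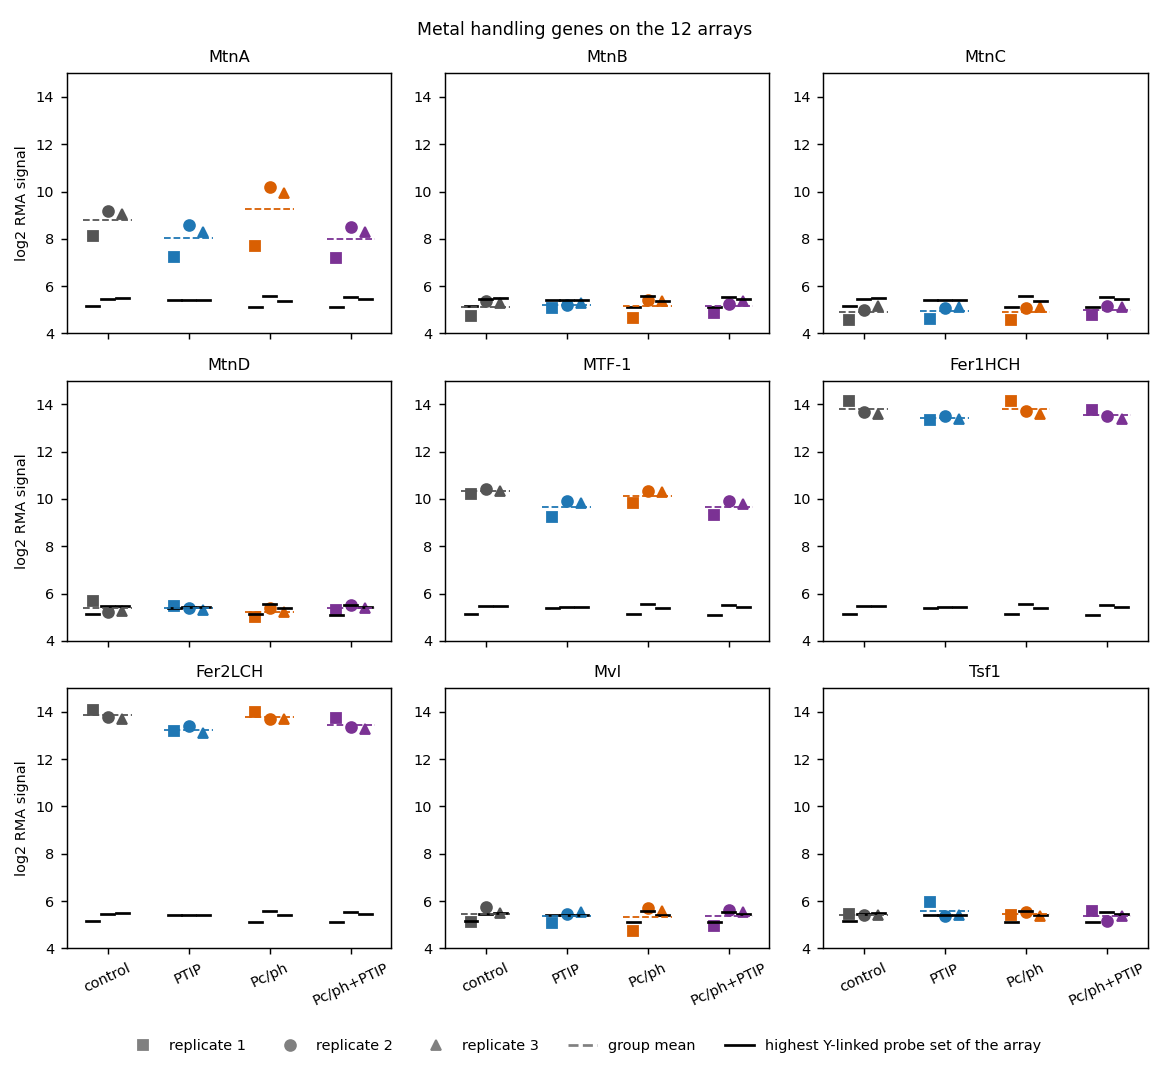
Log2 RMA signal of the 9 genes (vertical axis) on the 12 arrays, by group (horizontal axis), with symbols for the replicate, a dashed line for the group mean and a black bar for the highest Y-linked probe set of the same array. MtnA, MTF-1 and the ferritin chains lie above the bars on every array, the other 5 genes lie near or under them, and MtnA is lowest in replicate 1 of each group.

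Treatment with PTIP dsRNA went with lower MTF-1 and Fer2LCH signal, and Pc/ph dsRNA by itself with no called change in any of the 9 genes. In the PTIP group 2 of 9 genes were called against the control, both lower, where 6.52% of the 18769 probe sets were called and 3.80% were called lower. After Pc/ph dsRNA, 0 of 9 were called in limma, and 0 had an unadjusted p under 0.05. Over all probe sets 1.53% were called and 10.1% had such a p. With all dsRNAs together, 1 of 9, MTF-1, was called lower than in the control, where 5.57% of all probe sets were called and 2.86% were called lower. When the Pc/ph+PTIP group was set against the Pc/ph group, 2 of 9 were called, MtnA and MTF-1, both lower, where 5.50% were called and 2.61% were called lower. The 3 comparisons with the control share its 3 arrays, so they are not independent of each other.

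Over the 9 genes the median log2 difference from the control was -0.08 in the PTIP group, -0.00 in the Pc/ph group and -0.07 in the Pc/ph+PTIP group. Over all probe sets the medians were 0.03, -0.00 and 0.01. All calls of the 9 genes rested on the replicate block: without it 0 of 9 were called by limma in any comparison, where 0.272%, 0.272% and 0.298% of all probe sets were called in the PTIP and Pc/ph+PTIP groups against the control and in the Pc/ph+PTIP against the Pc/ph group. In that fit without the block, 2 of 9 genes had an unadjusted p under 0.05 in each of the PTIP and Pc/ph+PTIP groups against the control and 0 in the other comparisons. Over all 18769 probe sets, 773 and 730 had such a p in these groups. Quantile normalization on top of the deposited values turned the balance of all calls in the PTIP group, from 41.7% to 54.3% higher.

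MTF-1, the regulator, was lower in both groups that received PTIP dsRNA. Its log2 signal was 10.23, 10.43 and 10.34 in the control, in the order of replicates 1, 2 and 3. It was 9.25, 9.93 and 9.85 in the PTIP group and 9.33, 9.92 and 9.78 in the Pc/ph+PTIP group. Every array of these 2 groups lay below every control array. Groups that separated in this way, with the lower values in the treated cells, were found for 3.73% of all probe sets in the PTIP group and 4.08% in the Pc/ph+PTIP group. The Pc/ph arrays, at 9.81, 10.35 and 10.28, overlapped the control.

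MTF-1 fell by 0.66 ± 0.10 (SE, 3 arrays per group) on the log2 scale in the PTIP group, to 63.5% of the control (limma, adjusted p = 0.00430). The difference was -0.98, -0.50 and -0.49 in replicates 1, 2 and 3. In the Pc/ph+PTIP group MTF-1 fell by 0.66 ± 0.10 as well, to 63.4% (adjusted p = 0.00482), with differences of -0.90, -0.51 and -0.56. Both were called without any one of the 12 arrays, and in replicates 2 and 3 alone, at -0.49 (adjusted p = 0.00165) and -0.54 (adjusted p = 0.00105). In that smaller fit 13.7% and 11.7% of all probe sets were called. Without the replicate block the adjusted p was 0.648 and 0.673.

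With Pc/ph dsRNA alone the MTF-1 difference from the control was -0.18 ± 0.10 and was not called (adjusted p = 0.616). In the Pc/ph+PTIP group, where the Pc signal was higher, MTF-1 was lower than in the Pc/ph group by 0.47 ± 0.10, at 72.1% (adjusted p = 0.0203). The difference was -0.48, -0.43 and -0.50 in the 3 replicates, although the groups overlapped. Replicates 2 and 3 alone gave -0.47 (limma, adjusted p = 0.00191), where 15.6% of all probe sets were called. The call was lost without Pc/ph replicate 2 (adjusted p = 0.0790), Pc/ph replicate 3 (0.100), or Pc/ph+PTIP replicates 1 (0.0785), 2 (0.0744) or 3 (0.0963). By group mean the order was control 10.33 ± 0.10 (SD, n = 3), Pc/ph 10.15 ± 0.29, PTIP 9.68 ± 0.37 and Pc/ph+PTIP 9.67 ± 0.31. The differences between the first 2 groups and between the last 2 were not called.

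Among the metallothioneins followed here, MtnA alone had signal clearly above background. MtnA had its highest signals in Pc/ph cells and its lowest in cells given PTIP dsRNA. Its log2 signal was 8.11, 9.19 and 9.07 in replicates 1, 2 and 3 of the control and 7.69, 10.17 and 9.94 in the Pc/ph group. It was 7.22, 8.57 and 8.27 in the PTIP group and 7.20, 8.51 and 8.30 in the Pc/ph+PTIP group. The replicate 1 array was the lowest of each group, and its difference from the mean of the other 2 arrays was -1.02 in the control, -1.20 in the PTIP group, -2.36 in the Pc/ph group and -1.20 in the Pc/ph+PTIP group. The gap in the Pc/ph group was the widest, and with the replicate 1 arrays all groups overlapped. Among replicates 2 and 3, the Pc/ph arrays lay above the control arrays and these above the PTIP and Pc/ph+PTIP arrays.

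In the Pc/ph+PTIP group, where the Pc signal was higher, MtnA was lower than in the Pc/ph group by 1.26 ± 0.23 on the log2 scale, at 41.7% (adjusted p = 0.0134). The difference was -0.49 in replicate 1 and -1.66 and -1.64 in replicates 2 and 3. In replicates 2 and 3 alone it was -1.65 (adjusted p = 1.36e-06), where 15.6% of all probe sets were called. The call was lost without Pc/ph replicate 2 (adjusted p = 0.0668) or 3 (0.0744), or without Pc/ph+PTIP replicate 2 (0.0746) or 3 (0.0778).

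Against the control, MtnA stood at -0.77 ± 0.23 in the PTIP group and at -0.78 ± 0.23 in the Pc/ph+PTIP group, neither of them called (adjusted p = 0.0883 and 0.0897). The differences were -0.89, -0.62 and -0.79 in the PTIP group and -0.91, -0.68 and -0.77 in the Pc/ph+PTIP group, all negative. For Pc/ph cells the difference was 0.48 ± 0.23, not called (adjusted p = 0.563), with -0.42 in replicate 1 and 0.98 and 0.87 in replicates 2 and 3. Replicate 1 thus had the opposite sign to the other 2 replicates.

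A single array decided these calls. Without Pc/ph replicate 1, MtnA was 0.89 higher in the Pc/ph group than in the control (adjusted p = 4.70e-04). In the same fit it was lower by the same amounts as before in the PTIP group (adjusted p = 3.79e-04) and the Pc/ph+PTIP group (adjusted p = 3.34e-04), with a standard error of 0.07 in place of 0.23. In that fit 2.0%, 9.05% and 8.05% of all probe sets were called in the Pc/ph, PTIP and Pc/ph+PTIP groups. In replicates 2 and 3 alone the Pc/ph difference was 0.93 (adjusted p = 7.66e-05), where 5.68% were called, and the PTIP difference was -0.71 (adjusted p = 3.16e-04).

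Whether the effect of PTIP dsRNA differed with and without Pc/ph dsRNA was tested as an interaction, in which the Pc/ph+PTIP arrays also differ from the Pc/ph arrays in their Pc signal, as given above. It was called for 0 of 9 genes in limma and for 0.186% of all probe sets. None of the 9 had an unadjusted p under 0.05, where 4.51% of all probe sets did. For MtnA it was -0.49 ± 0.33 (adjusted p = 1.0), with 0.40 in replicate 1 and -1.04 and -0.84 in replicates 2 and 3. It was called for MtnA without Pc/ph replicate 1 (-0.90, adjusted p = 0.00858), where 0.426% of all probe sets were called. It was also called in replicates 2 and 3 alone (-0.94, adjusted p = 0.00200), where 1.39% were called. By group mean the order for MtnA was Pc/ph 9.27 ± 1.37 (SD, n = 3), control 8.79 ± 0.59, PTIP 8.02 ± 0.71 and Pc/ph+PTIP 8.005 ± 0.70, and no neighbours in it differed by a call.

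**Figure D2:**
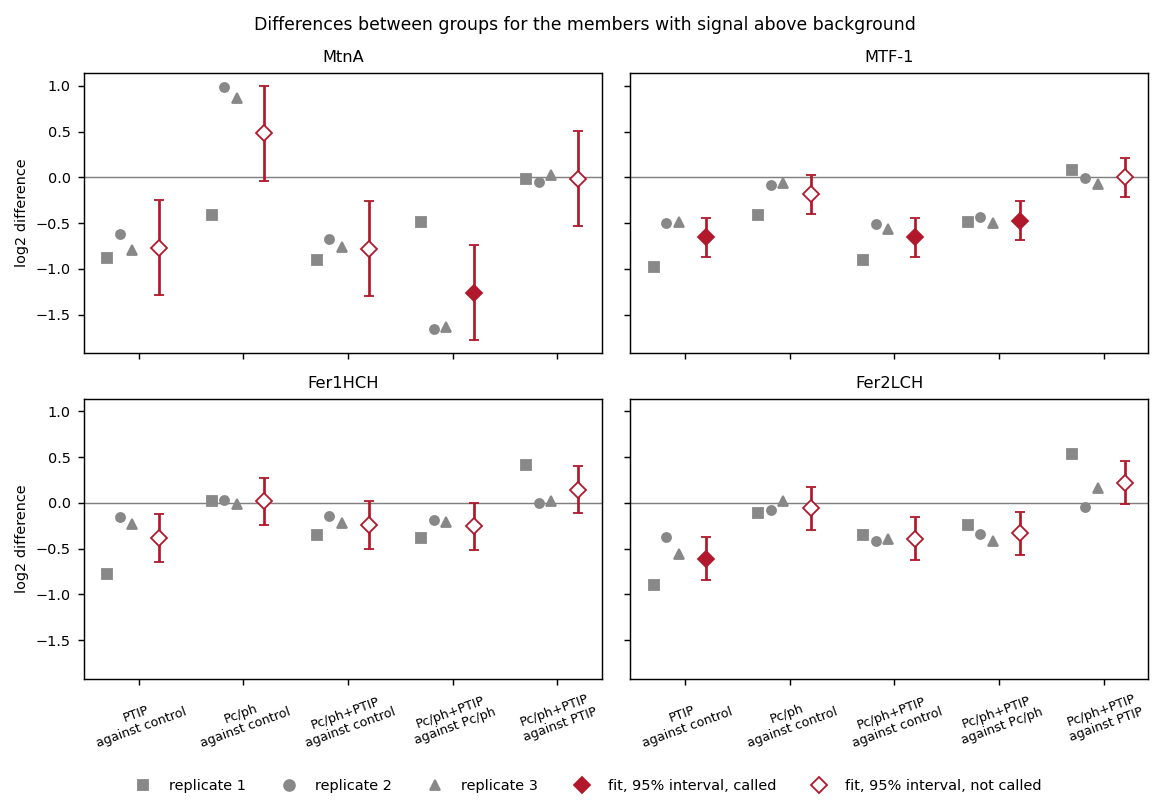
Log2 differences between groups (vertical axis) for the 4 genes with signal above background, by comparison (horizontal axis). Grey symbols are the differences within replicates 1, 2 and 3, and red diamonds are the fitted differences with 95% intervals, filled where called. MtnA in Pc/ph against control has replicate 1 at -0.42 and replicates 2 and 3 at 0.98 and 0.87, while all MTF-1 differences of the PTIP and Pc/ph+PTIP groups from the control are negative.

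Of the ferritin chains, the light chain Fer2LCH fell after PTIP dsRNA, and the heavy chain Fer1HCH was not called. Fer2LCH had log2 signals of 14.10, 13.78 and 13.68 in replicates 1, 2 and 3 of the control and 13.20, 13.40 and 13.12 in the PTIP group. The Pc/ph arrays, at 13.98, 13.70 and 13.70, overlapped the control, and the Pc/ph+PTIP arrays, at 13.74, 13.36 and 13.28, lay lower but still overlapped it. All 3 PTIP arrays lay below all control arrays, as for 3.73% of all probe sets. Fer2LCH fell by 0.61 ± 0.10 (SE, 3 arrays per group) in the PTIP group, to 65.6% of the control (adjusted p = 0.00942), and the call was made without any one of the 12 arrays. The differences were -0.89, -0.37 and -0.56, and replicates 2 and 3 alone gave -0.47 (adjusted p = 0.00614). Without the replicate block the adjusted p was 0.320.

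Fer2LCH in the Pc/ph+PTIP group stood at -0.39 ± 0.10 against the control (adjusted p = 0.0614), with -0.36, -0.42 and -0.40 in the 3 replicates. It was called without PTIP replicate 1 (adjusted p = 0.0117) or 2 (0.0319) and in replicates 2 and 3 alone (0.0132). The same call was made in limma after quantile normalization (adjusted p = 0.0239) or cyclic loess (0.0137), or with a robust variance trend (0.0343). Against the Pc/ph group it stood at -0.33 ± 0.10, not called (adjusted p = 0.112), and it was called there without PTIP replicate 1 (adjusted p = 0.0239). Calls were also made there in replicates 2 and 3 alone (-0.37, limma, adjusted p = 0.0151), after quantile normalization (0.0426) and after cyclic loess (0.0341). By mean the order was control 13.85 ± 0.22 (SD, n = 3), Pc/ph 13.79 ± 0.16, Pc/ph+PTIP 13.46 ± 0.24 and PTIP 13.24 ± 0.15. No neighbours in it differed by a call.

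Fer1HCH, the heavy chain, had log2 signals of 14.12, 13.66 and 13.61 in the control, 13.35, 13.52 and 13.38 in the PTIP group, 14.15, 13.70 and 13.60 in the Pc/ph group and 13.77, 13.52 and 13.39 in the Pc/ph+PTIP group. The PTIP arrays again lay below all control arrays, as for 3.73% of all probe sets, but the difference of -0.39 ± 0.12 was not called (adjusted p = 0.0883). It was -0.77 in replicate 1 and -0.15 and -0.24 in replicates 2 and 3, which alone gave -0.19 (adjusted p = 0.118). The call was made after quantile normalization (adjusted p = 0.0378) or cyclic loess (adjusted p = 0.0266) of the deposited values. For Pc/ph cells it was 0.02 ± 0.12, and in the Pc/ph+PTIP group -0.24 ± 0.12 (adjusted p = 0.357). Fer1HCH in the Pc/ph+PTIP group was at -0.26 ± 0.12 relative to the Pc/ph group (adjusted p = 0.309), called only without PTIP replicate 1 (0.0458) among the alternatives run.

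In the gene table Fer1HCH and Fer2LCH are overlapping neighbours on chromosome 3R. Both of their probe sets, and that of Mvl, carry the array's mark (_s_at) for probes that may match more than 1 transcript. Those of MTF-1 and Tsf1 carry another mark (_a_at). MTF-1 overlaps CG42526, Bet3 and asRNA:CR45872 in the gene table, and any share of these in its signal was not tested. After the mean of each replicate number was removed, the signals of Fer1HCH and Fer2LCH correlated over the 12 arrays at r = 0.93. MTF-1 correlated with Fer2LCH at 0.89, with Fer1HCH at 0.84 and with MtnA at 0.77, as a description of arrays that share the same 4 groups.

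Adding Pc/ph dsRNA to PTIP dsRNA gave no called difference in any of the 9 genes. Between the Pc/ph+PTIP and PTIP groups 0 of 9 genes were called in limma and 0 had an unadjusted p under 0.05. Over all probe sets 0.0320% were called and 4.15% had such a p. The Pc probe set itself stood at 62.4% of the PTIP group in this comparison and was not called, against 19.9% of the control in the Pc/ph group. The comparison therefore does not show what a stronger loss of Pc signal would do in cells given PTIP dsRNA. The difference for MtnA was -0.02, with a 95% interval of -0.53 to 0.50. For MTF-1 it was -0.00 (-0.22 to 0.21), for Fer1HCH 0.15 (-0.12 to 0.41) and for Fer2LCH 0.22 (-0.01 to 0.45).

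The 5 genes near background gave small differences of either sign. MtnB, MtnC, MtnD, Mvl and Tsf1 lay between -0.21 and 0.19 on the log2 scale in the 5 comparisons of groups, and none was called under any alternative run. The other probe sets of Tsf1 were not called either. Such values near background do not show whether these genes changed.

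Other genes of metal handling, from lists drawn up with earlier results of these data known, were counted beside the 9. Of the 4 lists (copper, zinc, iron and oxidative stress), the iron list (13 of 14 genes measured) held the most calls against the control: 5 lower and 1 higher in the PTIP group, 0 in the Pc/ph group, and 4 lower and 1 higher in the Pc/ph+PTIP group, each against the control, where 6.52%, 1.53% and 5.57% of all probe sets were called. Its median log2 differences were -0.25, -0.04 and -0.20. FeCH, the ferrochelatase that inserts iron into heme, had log2 signals of 12.60, 12.36 and 12.28 in the control and 10.80, 11.50 and 11.46 in the PTIP group, without overlap. Such a separation, lower in the PTIP group, was found for 3.73% of all probe sets. FeCH fell by 1.16 ± 0.17 in the PTIP group (adjusted p = 0.00446) and by 1.11 ± 0.17 in the Pc/ph+PTIP group (adjusted p = 0.00587). In replicates 2 and 3 alone the FeCH differences were -0.84 and -0.83.

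The mitochondrial iron importer mfrn fell by 0.82 ± 0.11 in the PTIP group (adjusted p = 0.00234), a call that was also made without the replicate block (adjusted p = 0.0424). It fell by 0.66 ± 0.11 in the Pc/ph+PTIP group (adjusted p = 0.00701), and replicates 2 and 3 alone gave -0.67 and -0.64. Nfs1, the cysteine desulfurase of iron-sulphur cluster assembly, fell by 0.64 ± 0.12 and 0.69 ± 0.12 in these groups, and bcn92, which encodes the fly counterpart of its partner ISD11, by 0.46 ± 0.09 and 0.47 ± 0.09. Replicates 2 and 3 alone gave -0.46 and -0.51 for Nfs1 and -0.47 and -0.49 for bcn92. Irp-1B, of the aconitase and iron regulatory protein family, fell by 1.03 ± 0.22 in the PTIP group (adjusted p = 0.0237). Its difference there was -1.99 in replicate 1 against -0.52 and -0.58 in replicates 2 and 3, which alone gave -0.55. The melanotransferrin Tsf2 went the other way and rose by 0.46 ± 0.09 in the PTIP group (adjusted p = 0.0187) and by 0.65 ± 0.09 in the Pc/ph+PTIP group (adjusted p = 0.00482), with 0.48 and 0.54 in replicates 2 and 3 alone.

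The number of called iron genes in the PTIP group was 3 without control replicate 1 or PTIP replicate 3, and 1 without the replicate block. Against the Pc/ph group, 2 of 13 iron genes were called in the Pc/ph+PTIP group, both lower, where 5.50% of all probe sets were called and 2.61% were called lower. They were FeCH (-0.93 ± 0.17, adjusted p = 0.0135) and bcn92 (-0.41 ± 0.09, adjusted p = 0.0293), at -0.77 and -0.52 in replicates 2 and 3 alone. That count was 0 without Pc/ph replicate 3 or Pc/ph+PTIP replicate 2 or 3, and 1 without control replicate 3, Pc/ph replicate 2 or Pc/ph+PTIP replicate 1. It rose to 4 without control replicate 1 and to 5 without PTIP replicate 1. Leaving out each array gave 333 to 1561 calls over all 18769 probe sets in this comparison, and 475 to 1699 in the PTIP group against the control.

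Of the copper and zinc genes, 1 of 8 and 2 of 17 were called in the PTIP group, where 6.52% of all probe sets were called. In the PTIP group 1 of 8 copper genes was called, Cox17, a copper chaperone for cytochrome c oxidase, which fell by 0.46 ± 0.12 (adjusted p = 0.0444). It was -0.25 in replicates 2 and 3 alone and not called there (adjusted p = 0.0601). Of 17 zinc transporter genes, 2 were called in the PTIP group. Zip99C, a ZIP family member reported in flies to carry iron into the secretory pathway, fell by 0.87 ± 0.16 (adjusted p = 0.0141), and the ZIP family gene foi rose by 0.39 ± 0.09 (adjusted p = 0.0384). In replicates 2 and 3 alone Zip99C was at -0.61 and foi at 0.51. Against the control, 0 copper and 0 zinc genes were called in the Pc/ph and Pc/ph+PTIP groups, while 3 of 8 and 2 of 8 copper genes and 2 of 17 zinc genes in each group had an unadjusted p under 0.05. Over all probe sets that share was 10.1% and 16.7%. In the Pc/ph+PTIP group, where the Pc signal was higher, 1 of 17 zinc genes was called lower and 2 higher than in the Pc/ph group. Over all probe sets 5.50% were called. ZnT41F fell there by 1.01 ± 0.24 (adjusted p = 0.0396), while ZnT63C rose by 0.37 ± 0.09 (adjusted p = 0.0366) and foi by 0.46 ± 0.09 (adjusted p = 0.0211). In replicates 2 and 3 alone the 3 differences were -0.77, 0.43 and 0.495. Against the control, ZnT41F, ZnT63C and foi stood at 0.90, -0.30 and -0.17 in the Pc/ph group. In the Pc/ph+PTIP group they stood at -0.12, 0.08 and 0.29, and none of these differences from the control was called.

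Among 10 measured genes of oxidative stress defence, the catalase gene Cat fell by 0.92 ± 0.20 in the PTIP group (adjusted p = 0.0232), with differences of -1.67 in replicate 1 and -0.59 and -0.51 in replicates 2 and 3. Replicates 2 and 3 alone gave -0.55 (adjusted p = 0.00156). Keap1, the inhibitor of the antioxidant regulator cnc, had log2 signals of 8.41, 8.96 and 8.74 in the control and 7.56, 7.70 and 7.86 in the Pc/ph group. Keap1 thus fell by 1.00 ± 0.09 in the Pc/ph group (adjusted p = 3.21e-04). It was the single called gene of the 4 wider lists in that group, where 1.53% of all probe sets were called. In the Pc/ph+PTIP group, where the Pc signal was also higher, Keap1 was higher than in the Pc/ph group by 0.83 ± 0.09 (adjusted p = 8.04e-04). Replicates 2 and 3 alone gave -1.07 and 0.83 for these differences.

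**Figure D3:**
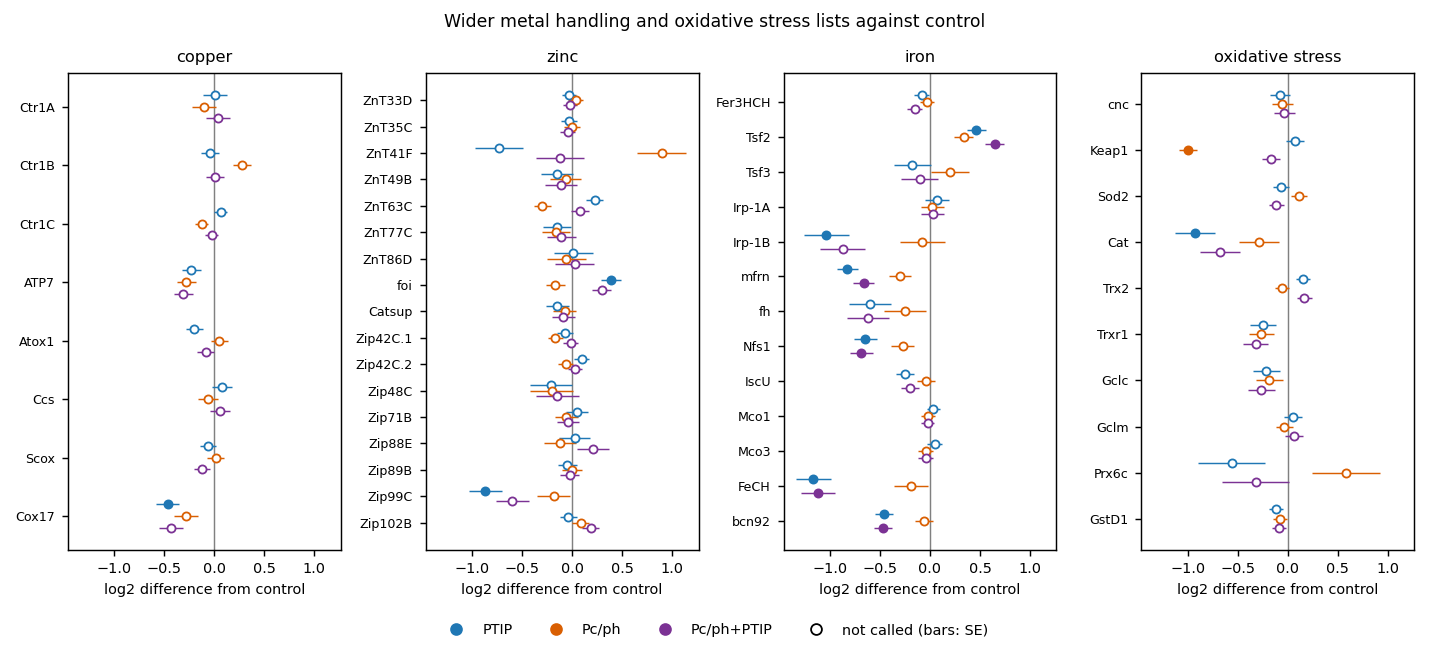
Fitted log2 differences from the control (horizontal axis) for the measured genes of the copper, zinc, iron and oxidative stress lists (vertical axis), with bars of 1 standard error. Colours mark the treated group and filled points the calls. FeCH lies at -1.16 and -1.11 in the PTIP and Pc/ph+PTIP groups and Keap1 at -1.0 in the Pc/ph group.

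The genes most like each of the 4 genes with clear signal were sought by Pearson correlation over the 12 arrays, after the mean of each replicate number was removed. For MtnA they were car (r = 0.974), Mec2 (0.969) and CCDC53 (0.962). For MTF-1 they were CG42365, ref(2)P and CG30344, each at 0.992. For Fer1HCH they were Ctl1 (0.993), cni (0.986) and Tab2 (0.985), and for Fer2LCH osi (0.989), ImpL2 (0.984) and Pld3 (0.975). These are the highest of 11973 correlations per gene and describe arrays of the same 4 groups, so no p-value is given.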

How the data were processed

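RNA was measured on Affymetrix Drosophila arrays. The authors deposited a log2 signal for each probe set on each array, which entered the fits unaltered. RMA and limma are named in the submitters' processing notes, without versions. After 183 control probe sets were removed from the 18952, tests ran on 18769, of which 13647 carry 1 gene symbol in the platform annotation, 402 several and 4720 none. A RefSeq gene table (Release 6 plus ISO1 MT) served only for names and neighbouring genes.

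Groups were compared in limma 3.58.1 (R 4.3.3) over all 12 arrays, with group means, the replicate number as a block and 6 residual degrees of freedom. Tests were two-sided, with Benjamini-Hochberg adjustment over all 18769 probe sets within each comparison, and "called" means an adjusted p under 0.05. The procedure was tested on simulated data. The interaction subtracts the difference of PTIP from control from that of Pc/ph+PTIP from Pc/ph.

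The block came with the choice of genes. After group means were removed, same-numbered arrays of different groups correlated at 0.489 to 0.880 (18 pairs). Numbers 2 and 3 of different groups correlated at 0.396 to 0.784, and number 1 with either at -0.842 to -0.490, so the numbers mark a replicate 1 batch more than pairs.

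Genes and lists were chosen with earlier results of these data known. All 9 genes are described, and genes of the wider lists are named where called. A motif search in promoters was not run, since no sequences were used here. The alternatives were no replicate block, replicates 2 and 3 only, quantile or cyclic loess normalization, a variance trend, no dim probe sets, the mean over probe sets, and leaving out each array. The number of arrays limits the precision.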

Additional observations from a re-analysis of the deposited data

How the results depend on the processing

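The replicate block decided the calls. With no replicate block 0 of the 9 genes were called in the PTIP and Pc/ph+PTIP groups against the control and 0 in the Pc/ph+PTIP against the Pc/ph group. Over all probe sets, calls in the 6 comparisons, in the order of the text, were 1224, 287, 1046, 1033, 6 and 35 with the block and 51, 37, 51, 56, 6 and 1 without it. Replicates 2 and 3 only gave 2566, 1066, 2194, 2925, 67 and 261, and there 1 of the 9 genes was called in Pc/ph against control, 3 in Pc/ph+PTIP against control and 1 in the interaction. In Pc/ph+PTIP against control, quantile normalization, cyclic loess and the robust variance trend each gave 2. Leaving out each array in turn gave 0 to 1 called genes in Pc/ph against control, 1 to 2 in Pc/ph+PTIP against control, 0 to 4 in Pc/ph+PTIP against Pc/ph and 0 to 1 in the interaction. Signs turned, with no call on either side, for Tsf1 in PTIP against control (-0.015) and MtnD in Pc/ph against control (0.050) in replicates 2 and 3 only, and for Fer1HCH in Pc/ph+PTIP against PTIP on leaving out arrays (-0.030 to 0.244). Of 1008 differences of the 9 genes recomputed under 19 alternatives, 14 lost a call and 21 gained one. The rest kept their side of the threshold. Of these, 3 turned as above and 970 were counted as the same, among them 63 values within 1 SE of 0 that changed sign. Calls in Pc/ph+PTIP against PTIP were 5 higher and 1 lower, and 5 and 0 after quantile normalization. Iron gene counts under the alternatives were added after seeing the data. The causes were not tested.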
